A study of Mus musculus with 96 samples.

Results

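The data described here are DNA barcode reads from a mixed leukaemia, made of cells that began as LSK cells and cells that began as GMP cells, in the bone marrow and the spleen of the same NSG mice. The samples were chosen by their labels: bone marrow and spleen of mice 21, 22 and 23, which are 6 of the 48 samples of the series, with the mixed pool taken before transplantation as their reference. Mouse 24 had only a spleen sample and was left out of the comparison. The leukaemia cells came from the bone marrow of female C57BL/6 donors of 6 to 8 weeks, were sorted as LSK (Lin-, c-Kit+, Sca-1+) or as GMP (Lin-, c-Kit+, CD34+, FcγRHI), and all received the MLL-AF9 retrovirus and a SPLINTR barcode library. Cells of LSK origin carry GFP barcodes and cells of GMP origin carry mCherry barcodes, per the labels. The samples beside which some values are set are the tissues of 4 NSG mice given LSK leukaemia alone, of 4 NSG mice given GMP leukaemia alone and of 4 Ptprca mice given the mixture. The age and sex of the recipients, the cell dose and the time of harvest are not given in the sources used here.

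As background, LSK cells are an immature marrow population that includes the haematopoietic stem cells, and GMP cells are committed progenitors of granulocytes and monocytes. MLL-AF9 is a fusion oncogene that turns either population into acute myeloid leukaemia in mice. NSG mice lack B, T and NK cells, so that engrafted cells meet little adaptive immunity. In mice the spleen is a blood-forming organ alongside the marrow, and myeloid leukaemia commonly fills both. A heritable DNA barcode marks a founder cell and all its descendants, called a clone here, so that barcode shares in 2 organs show whether the same clones grew in each. The barcode letters themselves are not in the files used here, and clones are called by the names in the tables. Barcodes carry no information on gene expression, so the tissue labels could not be checked against marker genes, and a clone with several barcode copies per cell would count more than its share of cells.

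The 6 samples held 5736088 to 7783350 barcode reads, and the pool held 4257581. The LSK share of a sample is the LSK part of its LSK plus GMP reads, and the level of a clone is given as a percentage of the reads of its own origin, so that it does not move with the LSK share. A clone counted as detected at 100 CPM (counts per 1000000 barcode reads) or more. In the NSG mice that received 1 origin alone, reads of the origin they had not received made up 0.0136% to 0.538% (LSK reads in 8 samples of GMP recipients) and 0.00982% to 0.128% (GMP reads in 8 samples of LSK recipients). The largest single clone of the origin not received ranged from 14.2 to 1207 CPM over those 16 samples, with a median of 81.0 CPM, and it was at or over 100 CPM in 5 of them. Clones near that level in the mixed mice were counted and tested with the others, and the part of such reads in those values was not tested.

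The bone marrow and spleen that share a mouse number were not always the most alike in the mixed mice. Overlap, the percentage of reads shared by 2 samples when each clone is counted at the lower of its 2 levels, was 66.2% between the bone marrow and the spleen of mouse 21, and 79.3% between the bone marrow of mouse 21 and the spleen of mouse 22. For mouse 22 the bone marrow overlapped its own spleen by 73.3% and the spleen of mouse 21 by 71.5%. For mouse 23 it overlapped its own spleen by 64.8% and the spleen of mouse 22 by 68.9%. When each clone was taken as its deviation from the mean of its tissue (log2 scale, 70 clones), bone marrow and spleen correlated at r = -0.01 in mouse 21, -0.16 in mouse 22 and 0.57 in mouse 23. The same correlation was 0.40 between the bone marrow of 21 and the spleen of 22, and 0.47 between the bone marrow of 22 and the spleen of 21. These correlations run across clones of the same samples, which are not independent, and are a description only. As deviations from a mean of 3 mice they also constrain each other, and more so than in the groups of 4 mice below. Likeness of clones does not settle which animal a tissue came from. In the mixed mice 1 of 3 bone marrow samples correlated best with the spleen of its own mouse, while 4 of 4 did in LSK recipients and 3 of 4 in GMP recipients. By overlap, the best match was the own spleen for 1 of 3 bone marrow samples of mixed mice, 4 of 4 of LSK recipients and 1 of 4 of GMP recipients. The labelled pairs are used throughout. Means and fitted differences over the 3 mice are the same whether mice 21 and 22 are paired as labelled or crossed, and values per mouse rest on the labels.

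**Figure D1:**
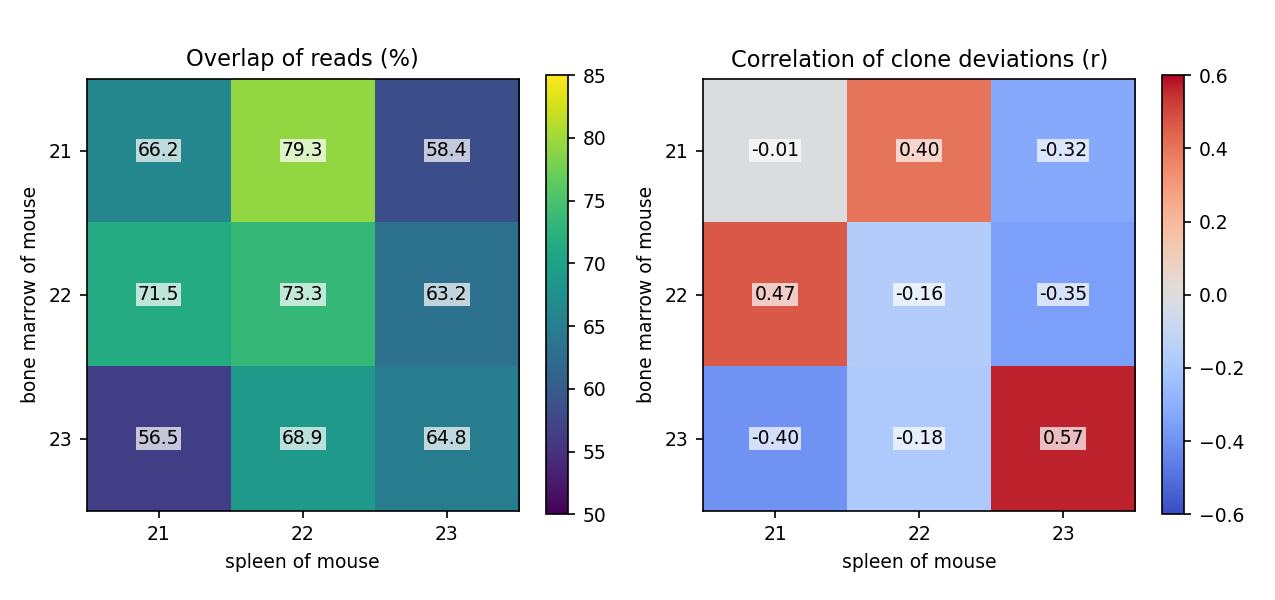
Each bone marrow sample (rows) against each spleen sample (columns) of the mixed NSG mice, as overlap of reads in percent (left) and as the correlation of clone deviations over 70 clones (right). The bone marrow of mouse 21 overlapped the spleen of mouse 22 most, at 79.3%, and 1 of 3 bone marrow samples, that of mouse 23, correlated best with its own spleen.

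The first comparison asks whether cells of LSK and of GMP origin hold different shares in the 2 organs. Both origins were abundant in every sample, and the organs differed in opposite directions between mice. The LSK share was 43.9%, 61.9% and 65.6% in the bone marrow of mice 21, 22 and 23, against 58.2%, 49.3% and 79.6% in their spleens. Bone marrow was thus lower than spleen in mice 21 and 23 and higher in mouse 22, and the ranges of the organs overlapped. Bone marrow averaged 57.1% ± 11.6 and spleen 62.4% ± 15.6 (SD, n = 3 each). As log2 odds the difference was -0.37 ± 0.97 (SD of the 3 paired differences, 1 of 3 mice higher in bone marrow; exact two-sided sign-flip permutation p = 0.5, adjusted 0.65 over 13 tests of such measures). With 3 mice this test cannot give a p under 0.25. The 95% Wilson interval of a single share, such as 43.89 to 43.97 for the bone marrow of mouse 21, covers counting error only and is far narrower than the spread between mice.

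The LSK share was above that of the pool in 2 of 3 bone marrow samples and in 2 of 3 spleens. The pool held 50.6% LSK reads (95% Wilson interval 50.56 to 50.66, 1 sample). The log2 odds over the pool averaged 0.39 ± 0.68 in bone marrow, against 0.77 ± 1.04 in spleen (SD, n = 3 each, exact sign-flip permutation p = 0.5 for each, adjusted 0.65). With 1 mouse left out at a time, the bone marrow value was 0.78 without mouse 21, 0.25 without mouse 22 and 0.14 without mouse 23. The spleen value was 0.93 without mouse 21, 1.19 without mouse 22 and 0.18 without mouse 23.

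**Figure D2:**
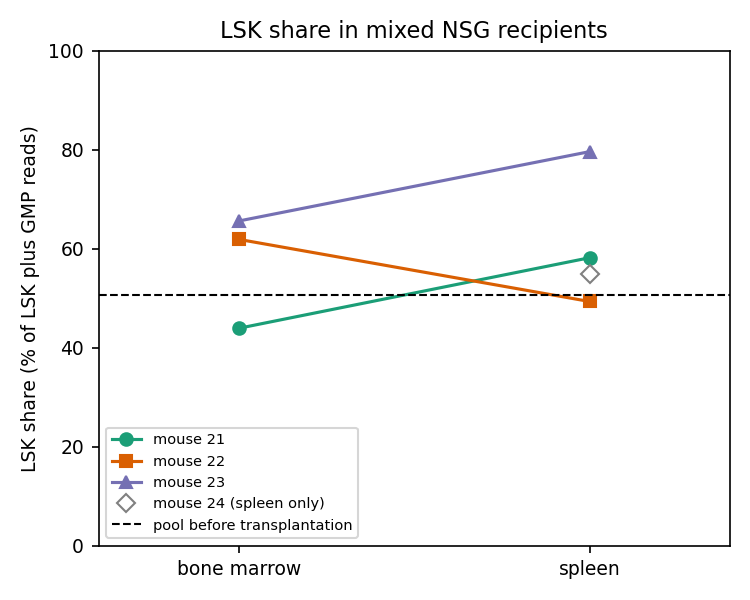
LSK share in percent of LSK plus GMP reads in bone marrow (left) and spleen (right), with a line for each mouse, the spleen of mouse 24 as an open point and the pool as a dashed line at 50.6%. Bone marrow lies below spleen in mice 21 and 23 and above it in mouse 22.

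Few clones carried each difference between the organs. In mouse 21 the LSK share differed by -14.2 percentage points (bone marrow minus spleen), while GFP_Barcode_1859 differed by -11.7, GFP_Barcode_100907 by -7.29 and GFP_Barcode_29850 by 7.13 points of all reads. In mouse 22 the LSK share differed by 12.5 points, and the largest single differences were those of the GMP clone mCHERRY_2_Barcode_283858 at -10.5 points and the LSK clone GFP_Barcode_7785 at 8.73 points. In mouse 23 the LSK share differed by -14.0 points, while GFP_Barcode_29850 alone differed by -20.7 and GFP_Barcode_100907 by -10.8, with GFP_Barcode_7785 opposite at 9.18 points. By these points of all reads GFP_Barcode_7785 stood on the bone marrow side in each mouse, with 1.38 points in mouse 21. The other 3 clones of LSK origin named here changed side: GFP_Barcode_29850 at -0.144, GFP_Barcode_100907 at 4.16 and GFP_Barcode_1859 at 1.38 points in mouse 22.

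The second comparison asks whether the organs held different numbers of clones. Effective clones, the exponential of the Shannon entropy of the clone shares, count how many clones of even size would be as diverse as the sample. They numbered 13.7, 12.5 and 11.8 in the bone marrow of mice 21, 22 and 23, against 11.6, 11.8 and 6.01 in their spleens. Bone marrow was higher in each of the 3 mice, little so in mouse 22, and the spleen of mouse 23 stood below all other samples. The unpaired spleen of mouse 24, at 12.8, lay above the bone marrow of mice 22 and 23. The paired difference was 0.43 ± 0.48 on the log2 scale (SD, n = 3; by the exact sign-flip permutation test p = 0.25, adjusted 0.65). Without mouse 23 it was 0.16. By the inverse Simpson index, which weights the largest clones more, mouse 22 went the other way, with 8.52 in bone marrow and 8.82 in spleen, and the log2 difference over the 3 mice was 0.41 (exact sign-flip permutation p = 0.5). Bone marrow averaged 12.7 and spleen 9.81 effective clones, against 579 in the pool, which held 45.6 times the bone marrow mean and 59.0 times the spleen mean.

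By origin, the gap between organs was seen in the GMP clones of each mouse. Effective GMP clones numbered 7.09, 6.92 and 5.73 in bone marrow, against 5.51, 4.95 and 2.57 in spleen, and the 3 bone marrow values lay above the 3 spleen values. The unpaired spleen of mouse 24, at 7.27, lay above all 3 bone marrow values. The difference was 0.67 ± 0.43 on the log2 scale (SD, n = 3, 3 of 3 mice, exact sign-flip permutation p = 0.25, adjusted 0.65). Without mouse 23 it was 0.42. Effective LSK clones numbered 6.71, 6.16 and 6.50 in bone marrow, against 6.20, 7.04 and 3.96 in spleen, so that the organs overlapped and mouse 22 went the other way. Their difference was 0.21 ± 0.46 (SD, n = 3, 2 of 3 mice, exact sign-flip permutation p = 0.75, adjusted 0.75), and without mouse 23 it was -0.039. Whether GMP clones differed more than LSK clones was not tested.

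The 10 largest clones together held a smaller part of the bone marrow than of the spleen in each mouse, which was not so for the 5 or the 20 largest. The 10 largest clones of a sample held 88.3%, 88.1% and 86.9% of LSK plus GMP reads in bone marrow, against 91.8%, 91.5% and 98.9% in spleen. All 3 bone marrow values lay below all 3 spleen values (bone marrow 87.8% ± 0.75, spleen 94.0% ± 4.19, SD, n = 3 each; exact sign-flip permutation p = 0.25, adjusted 0.65). Without mouse 23 the difference was -3.39 percentage points, against -6.23 with it. For the 5 largest clones the differences were -10.3, 2.72 and -19.1 points in mice 21, 22 and 23 (mean -8.90, exact sign-flip permutation p = 0.5). For the 20 largest they were 0.356, -1.42 and -0.257 points (mean -0.442, exact sign-flip permutation p = 0.75). The single largest clone held 15.2%, 21.3% and 21.3% in bone marrow, against 21.1%, 18.2% and 38.9% in spleen, which overlap (exact sign-flip permutation p = 0.5, adjusted 0.65). Their mean difference of -6.82 points was -1.43 without mouse 23 and -11.7 without mouse 22. That clone was mCHERRY_2_Barcode_283858 in the bone marrow of mouse 21 and the spleen of mouse 22, GFP_Barcode_7785 in the bone marrow of mice 22 and 23, GFP_Barcode_1859 in the spleen of mouse 21 and GFP_Barcode_29850 in the spleen of mouse 23.

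The number of detected clones gave no such order. There were 43, 51 and 30 clones at or over 100 CPM in bone marrow, against 49, 44 and 29 in spleen (2 of 3 mice higher in bone marrow; exact sign-flip permutation p = 0.75 and adjusted 0.75). LSK plus GMP barcodes with any read numbered 148, 147 and 84 in bone marrow, against 251, 305 and 109 in spleen, which is fewer in the bone marrow of each mouse. Brought down by calculation to the lowest depth of the 6 samples, 5735639 LSK plus GMP reads, the numbers were 148, 145 and 81.7 in bone marrow, against 240.2, 292 and 106 in spleen. The direction of the clone number therefore depended on the minimum: the log2 difference was 0.024 at 100 CPM, -0.20 at 10 CPM and -0.73 with no minimum, the last of these with bone marrow lower in 3 of 3 mice (exact sign-flip permutation p = 0.25). Part of the barcodes with few reads are at levels also reached by origins a mouse had not received, and their part in this was not tested.

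Over the 6 samples 48 LSK and 40 GMP clones were detected at least once. Of the LSK clones, 10 were detected in all 6 samples, and these held 87.0% to 99.4% of the LSK reads of each. Of the GMP clones, 8 were detected in all 6 samples, and these held 87.1% to 99.6% of the GMP reads. Detection in bone marrow alone was seen for 11 LSK and 13 GMP clones, and in spleen alone for 9 LSK and 8 GMP clones. However, 20 LSK and 19 GMP clones were detected in 1 sample only, which puts them in 1 organ by definition. These counts are therefore no measure of restriction to an organ. No clone was detected in 3 bone marrow samples and no spleen, and none in 3 spleens and no bone marrow. Every clone at or over 100 CPM in any of the 6 samples was also present in the pool. Of 543 LSK clones at or over 100 CPM in the pool, 2.95% to 4.42% were detected per bone marrow sample and 3.13% to 4.24% per spleen. Of 483 such GMP clones, 2.69% to 4.35% were detected per bone marrow sample and 1.86% to 4.55% per spleen.

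Shared clones made up nearly all reads of a mouse. In mouse 21, 18 LSK clones were detected in both organs and held 99.5% of LSK reads in bone marrow and 95.9% in spleen. In mouse 22 there were 20, with 99.2% in bone marrow and 96.7% in spleen, and in mouse 23 there were 15, with 99.8% in bone marrow and 99.7% in spleen. Shared GMP clones numbered 15, 14 and 9 in mice 21, 22 and 23, and held 99.4%, 97.2% and 94.4% of GMP reads in bone marrow, against 97.8%, 99.6% and 99.7% in spleen. The lowest of these, in the bone marrow of mouse 23, went with mCHERRY_2_Barcode_222912, which held 4.71% of GMP reads there, against 0.0264% in the spleen of that mouse.

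Among the LSK clones the same 4 led in both organs. Together GFP_Barcode_29850, GFP_Barcode_7785, GFP_Barcode_1859 and GFP_Barcode_100907 held 82.7%, 88.7% and 79.4% of LSK reads in the bone marrow of mice 21, 22 and 23, against 80.5%, 82.6% and 97.1% in their spleens, and 3.47% in the pool. Their order was not fixed: each ranked between 1 and 5 in every sample, with GFP_Barcode_29850, GFP_Barcode_7785 and GFP_Barcode_1859 each first in at least 1 of the 6. The LSK pool reads of the mixture had placed GFP_Barcode_7785 at rank 4, and the other 3 at ranks 39, 47 and 48.

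GFP_Barcode_7785 was the leading clone with more of the LSK reads in the bone marrow of each mouse. It held 24.7%, 34.4% and 32.5% in the bone marrow of mice 21, 22 and 23, against 16.3%, 25.5% and 15.3% in their spleens, and 1.82% in the pool. The lowest bone marrow value lay just under the highest of these spleen values, so the groups overlapped. In the unpaired spleen of mouse 24 the clone held 32.1%, which is above the paired spleens and the bone marrow of mouse 21. Over the 3 paired mice the difference was 0.71 ± 0.32 on the log2 scale (SE, limma adjusted p = 0.876 over 70 clones).

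GFP_Barcode_1859 had the opposite lean in each mouse, by little in mice 22 and 23. It held 21.2%, 16.96% and 10.8% of LSK reads in bone marrow, against 36.2%, 18.5% and 12.7% in spleen (log2 difference -0.37 ± 0.36, SE, limma adjusted p = 0.876, and -0.17 without mouse 21). GFP_Barcode_100907 held 9.65%, 20.6% and 8.21% in bone marrow, against 19.8%, 17.5% and 20.3% in spleen. Its 3 paired spleen values were close together, while the unpaired spleen of mouse 24 held 7.01%, below all 3 bone marrow values. The bone marrow values were lower than those of the paired spleens in mice 21 and 23 and higher in mouse 22 (log2 difference -0.70 ± 0.48, SE, limma adjusted p = 0.876). It was -0.40 without mouse 23 and -1.17 without mouse 22. GFP_Barcode_29850 held 27.1%, 16.7% and 27.8% in bone marrow, against 8.22%, 21.3% and 48.9% in spleen. It was higher in the bone marrow of mouse 21 and in the spleens of mice 22 and 23 (log2 difference 0.19 ± 0.57, SE, limma adjusted p = 0.929, and -0.58 without mouse 21).

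Below these 4, LSK clones varied more. GFP_Barcode_8037 held 5.92%, 0.111% and 0.0155% of LSK reads in bone marrow, against 11.7%, 2.40% and 0.126% in spleen, which is lower in the bone marrow of each mouse but spans a wider range between mice than between organs. GFP_Barcode_101397 held 0.169%, 1.48% and 3.32% in bone marrow, against 0.0750%, 0.256% and 0.170% in spleen, higher in the bone marrow of each mouse. GFP_Barcode_94426 reached 6.80% in the bone marrow of mouse 23, against 0.0665% in its spleen, and was at or under 0.0139% in the other 4 samples. GFP_Barcode_43817 held 2.73%, 1.0003% and 0.00411% in bone marrow, against 0.0240%, 0.0581% and 0.158% in spleen. GFP_Barcode_74372 stood between 1.46% and 2.47% in bone marrow, against 0.105% to 5.51% in spleen, and GFP_Barcode_20873 between 0.136% and 2.74% in bone marrow, against 0.345% to 1.68% in spleen. The organs overlapped for each of these 6 clones.

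**Figure D3:**
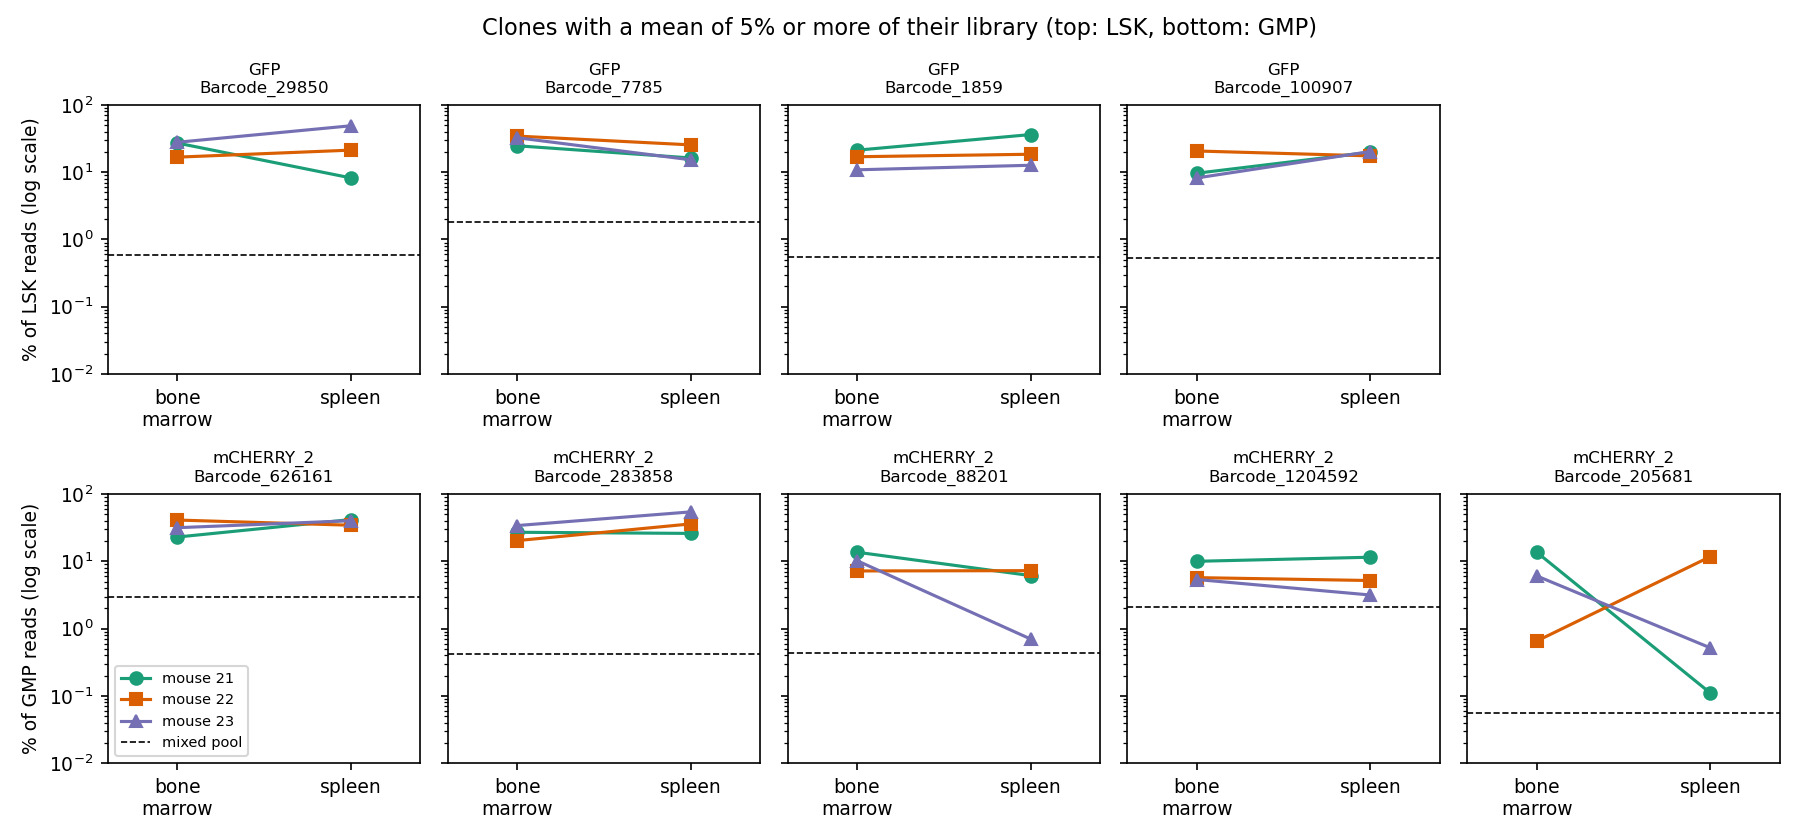
Percent of LSK reads (top, log scale) or of GMP reads (bottom, log scale) held by the 9 clones with a mean of 5% or more over the 6 samples, in bone marrow (left of each panel) and spleen (right), with a line for each mouse and the mixed pool dashed. In each mouse GFP_Barcode_7785 is higher and GFP_Barcode_1859 lower in bone marrow than in spleen, while mCHERRY_2_Barcode_205681 is higher in the bone marrow of mice 21 and 23 and lower in that of mouse 22.

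Among the GMP clones 2 led in every sample. mCHERRY_2_Barcode_626161 held 22.98%, 41.1% and 31.6% of GMP reads in the bone marrow of mice 21, 22 and 23, against 41.8%, 34.4% and 40.2% in their spleens. mCHERRY_2_Barcode_283858 held 27.1%, 20.3% and 34.0% in bone marrow, against 26.0%, 36.0% and 54.3% in spleen. Ranks 1 and 2 were held by these clones in all 6 samples, and in the pool they ranked 2 and 53. Together they held 50.0%, 61.5% and 65.7% of GMP reads in bone marrow, against 67.8%, 70.5% and 94.5% in spleen, and 3.42% in the pool. The 3 bone marrow sums were below the 3 spleen sums (bone marrow 59.1% ± 8.09, spleen 77.6% ± 14.7, SD, n = 3 each), although neither clone alone was lower in the bone marrow of every mouse. In the unpaired spleen of mouse 24 they held 27.3% and 27.0%, together less than in the bone marrow of mice 22 and 23. The fitted log2 differences were -0.32 ± 0.31 for mCHERRY_2_Barcode_626161 and -0.48 ± 0.30 for mCHERRY_2_Barcode_283858 (SE, limma adjusted p = 0.876 for each). The first was -0.045 without mouse 21 and -0.60 without mouse 22, and the second -0.31 without mouse 22 and -0.75 without mouse 21.

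The next GMP clones differed between organs without a common direction. mCHERRY_2_Barcode_88201 held 13.7%, 7.20% and 10.2% in bone marrow, against 6.14%, 7.28% and 0.701% in spleen (log2 difference 1.67 ± 0.94, SE, limma adjusted p = 0.876), and the difference was 0.57 without mouse 23 and 2.51 without mouse 22. Its bone marrow values were higher in mice 21 and 23 and nearly equal to spleen in mouse 22. mCHERRY_2_Barcode_1204592 held 10.0%, 5.73% and 5.37% in bone marrow, against 11.5%, 5.19% and 3.16% in spleen (log2 difference 0.24 ± 0.60, SE, limma adjusted p = 0.906), and was the most even of the leading GMP clones between organs.

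The largest swings among leading clones were those of mCHERRY_2_Barcode_205681. It held 13.6%, 0.654% and 6.06% of GMP reads in bone marrow, against 0.110%, 11.8% and 0.518% in spleen (log2 difference 2.11 ± 2.26, SE, limma adjusted p = 0.876, and -0.31 without mouse 21). Its high samples were the bone marrow of mouse 21 and the spleen of mouse 22, which are also the pair of samples with the highest overlap. mCHERRY_2_Barcode_532289 showed the reverse in these mice, with 0.494%, 6.87% and 4.32% in bone marrow, against 5.66%, 0.487% and 0.212% in spleen. mCHERRY_2_Barcode_151869 held 5.35% and 5.93% in the bone marrow of mice 21 and 22 and had 1 read in that of mouse 23, against 1.12%, 1.70% and 0.0403% in spleen. mCHERRY_2_Barcode_4128, the largest clone of the pool, held 2.16%, 4.92% and 1.11% in bone marrow, against 3.49%, 0.274% and 0.214% in spleen. mCHERRY_2_Barcode_222912 ranged from 0.0205% to 4.71% in bone marrow, against 0.0264% to 0.231% in spleen, and mCHERRY_2_Barcode_88122 from 0.238% to 1.51% in bone marrow, against 0.259% to 1.28% in spleen.

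A fit over all clones called none. Of 70 clones that averaged at least 100 CPM within their own origin (38 LSK, 32 GMP), limma with the mouse as a block called 0 at an adjusted p under 0.05 (0% of those tested), and 0 had an unadjusted p under 0.05. The lowest adjusted p was 0.876. edgeR on whole reads also called 0, with 0 at an unadjusted p under 0.05. The median log2 difference was 0.22 over all 70 clones, 0.15 over LSK clones and 0.97 over GMP clones. Without mouse 22, 1 of 62 clones was called: mCHERRY_2_Barcode_23793, with a log2 difference of 6.68 and a limma adjusted p of 0.0295. That clone held 0.336%, 0.000573% and 0.117% of GMP reads in bone marrow, against 0.000417%, 0.00398% and 0.00166% in spleen, so that it was higher in the bone marrow of mice 21 and 23 and lower in that of mouse 22.

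Of the 70 clones, 5 (7.14%) were higher in the bone marrow of all 3 mice and 8 (11.4%) were higher in the spleen of all 3. All 13 were LSK clones, out of 38, and of the 32 GMP clones 0 kept a direction over the 3 mice. A clone with no lean would keep 1 direction in 3 mice with a probability of 0.25. Against that, 13 of 70 is fewer and 13 of 38 is more. Clones of 1 origin share a total and are not independent, and a clone with 0 reads in both organs of a mouse cannot keep a direction. These counts are therefore a description only, and an excess of clones with a lean was not tested. The 5 were GFP_Barcode_7785, GFP_Barcode_101397, GFP_Barcode_123081, GFP_Barcode_9096 and GFP_Barcode_16022. The 8 were GFP_Barcode_1859, GFP_Barcode_8037, GFP_Barcode_94628, GFP_Barcode_15135, GFP_Barcode_6595, GFP_Barcode_11863, GFP_Barcode_102032 and GFP_Barcode_75494. Both lists are named here after their values were seen. Without a difference between organs, 3 values lie fully to 1 side of 3 others with a probability of 0.1, which is more than was seen. For 1 clone (1.43%) the 3 bone marrow values lay above the 3 spleen values, and for 0 clones (0%) below. That clone was GFP_Barcode_9096, at 0.0511%, 0.306% and 0.105% of LSK reads in bone marrow, against 0.0206%, 0.00663% and 0.0378% in spleen (limma adjusted p = 0.876). In 5 of the 6 samples its CPM of all reads lay within the range given above for the largest clone of an origin not received, and the part of such reads in its values was not tested. Whether LSK clones kept a direction more often than GMP clones was not tested.

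The median difference between organs was smallest for the largest clones. For the 9 clones with a mean of 5% or more, the median fold between organs, in either direction, was 1.70 over 27 pairs of a clone and a mouse. It was 5.49 for the 16 clones from 0.5 to 5% (48 pairs), 3.62 for the 20 clones from 0.05 to 0.5% (60 pairs) and 2.00 for the 25 clones from 0.01 to 0.05% (75 pairs). These folds were taken after adding 10 CPM, which understates those of the lowest clones. Differences of 10-fold or more were seen in 4, 18, 20 and 18 pairs of these classes, from the largest clones to the smallest.

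**Figure D4:**
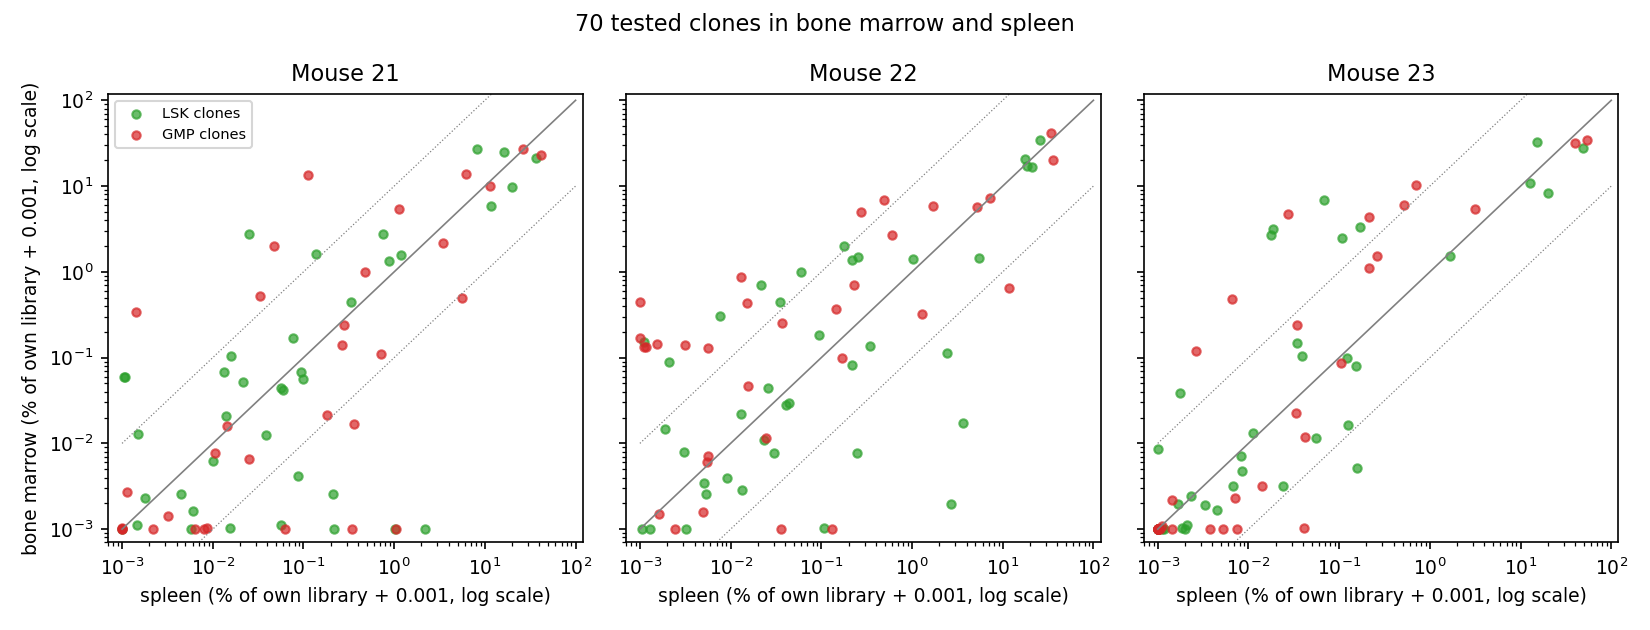
The 70 tested clones in bone marrow (vertical axis) against spleen (horizontal axis) of each mouse, in percent of their own origin plus 0.001 on log scales, with equality as a solid line and 10-fold differences dotted. Most points of the largest clones lie near the line, with 4 of 27 at a 10-fold difference or more, 3 of them from mCHERRY_2_Barcode_205681 and 1 from mCHERRY_2_Barcode_88201. Those in the middle of the range scatter past the dotted lines to both sides.

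Some clones were well above the minimum in 1 organ of a mouse and close to absent in the other. GFP_Barcode_34023 held 2.202% of LSK reads in the spleen of mouse 21, where its bone marrow had 0 reads, which allows a share of up to 0.000119%. In mouse 22 the same clone held 0.448% in bone marrow, against 0.0344% in spleen, so that the organs were turned round. GFP_Barcode_7670 also had 0 reads in the bone marrow of mouse 21, against 1.03% in its spleen, and held 0.697% in the bone marrow of mouse 22, against 0.0209% in its spleen. GFP_Barcode_15135 held 0.000955% in the bone marrow of mouse 22, against 2.67% in its spleen. Its values in the other mice were 0.0550% and 0.00217% in bone marrow, against 0.0972% and 0.0231% in spleen.

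In mice 21 and 22 the LSK clones that were near absent from spleen were smaller. GFP_Barcode_128363 held 0.153% in the bone marrow of mouse 22, against 0.000110% (4 reads) in its spleen. GFP_Barcode_68354 held 0.0589% in the bone marrow of mouse 21, against 3 reads in its spleen, and GFP_Barcode_14300 held 0.0577% there, against 2 reads. In mouse 22 GFP_Barcode_68354 held 0.00675% in bone marrow, against 0.0288% in spleen, so that the organs were turned round. Added up, such LSK clones, at or over 100 CPM of LSK reads in 1 organ and under 10 in the other, held 0.227%, 0.243% and 0.0756% of LSK reads in the bone marrow of mice 21, 22 and 23, against 3.58%, 2.86% and 0% in their spleens. Bone marrow was thus lower in mice 21 and 22 and higher in mouse 23.

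For GMP clones the same sums were 0.422%, 1.08% and 0% in bone marrow, against 1.58%, 0.165% and 0.0662% in spleen, with no common direction. The largest in spleen were mCHERRY_2_Barcode_525504 at 1.05% and mCHERRY_2_Barcode_986693 at 0.344% in mouse 21, each with 0 reads in its bone marrow, and mCHERRY_2_Barcode_820635 at 0.130% in mouse 22. The largest in bone marrow were mCHERRY_2_Barcode_533674 at 0.448% and mCHERRY_2_Barcode_198456 at 0.167% in mouse 22, each with 0 reads in its spleen, and mCHERRY_2_Barcode_23793 in mouse 21. Neither mCHERRY_2_Barcode_198456 nor mCHERRY_2_Barcode_820635 had a read in the other 5 samples. Above 1% in mouse 23 and near absent from mice 21 and 22 were GFP_Barcode_94426, whose values are given above, and GFP_Barcode_2523, at 2.68% in the bone marrow of mouse 23, against 0.0166% in its spleen, with at most 2 reads in any sample of mice 21 and 22.

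The third comparison asks whether the lean of a clone or origin between organs was the same when it grew without the other origin. For effective LSK clones, the log2 difference between organs was 0.21 ± 0.46 in mixed mice (n = 3) and 0.072 ± 0.12 in LSK recipients (SD, n = 4; exact two-sided permutation p = 0.743, adjusted 0.75). The LSK recipients averaged 6.75 ± 0.82 in bone marrow, against 6.40 ± 0.44 in spleen (SD, n = 4 each). For effective GMP clones it was 0.67 ± 0.43 in mixed mice (n = 3) and 0.069 ± 0.32 in GMP recipients (SD, n = 4; exact two-sided permutation p = 0.114, adjusted 0.65). The GMP recipients averaged 7.39 ± 1.16 in bone marrow, against 6.99 ± 0.64 in spleen (SD, n = 4 each). The smallest p that 3 against 4 mice allow is 0.0571.

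**Figure D5:**
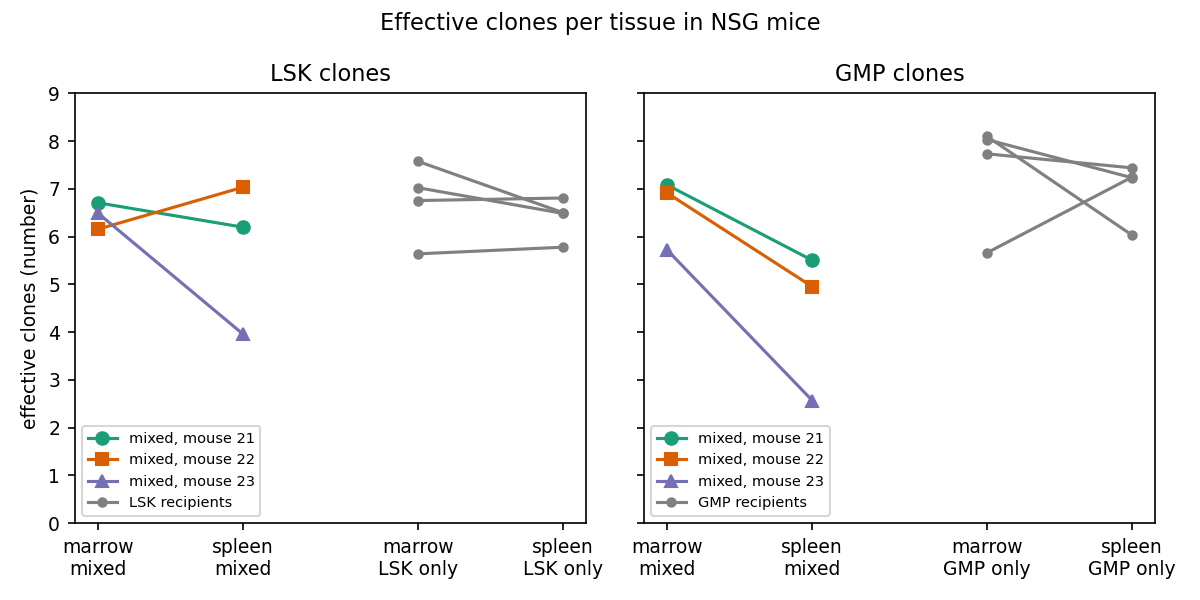
Effective clones of LSK origin (left) and GMP origin (right) in bone marrow and spleen, for the 3 mixed mice (coloured) and the 4 mice given that origin alone (grey), with a line for each mouse. Effective GMP clones in the 3 mixed mice run from 5.73 to 7.09 in bone marrow, above the 2.57 to 5.51 of their spleens.

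For single clones, limma's interaction of organ and recipient type called 0 of 52 LSK clones (0%, 2 with an unadjusted p under 0.05, lowest adjusted p 0.967) and 0 of 47 GMP clones (0%, 1 with an unadjusted p under 0.05, lowest adjusted p 0.674); edgeR was not run for it. Among 52 and 47 tests a few unadjusted p under 0.05 would be seen without any true difference, so these counts single out no clone. The 2 LSK clones were GFP_Barcode_7785 and GFP_Barcode_15135, and the GMP clone was mCHERRY_2_Barcode_986693. In mixed mice GFP_Barcode_7785 held 30.5% ± 5.15 in bone marrow (SD, n = 3), against 15.3% to 25.5% in the paired spleens. In the unpaired mixed spleen of mouse 24 it held 32.1%, above that bone marrow mean. In LSK recipients it held 20.1% ± 5.87 in bone marrow, against 19.9% ± 7.53 in spleen (SD, n = 4). GFP_Barcode_15135, whose values in mixed mice are given above, held 1.34% ± 1.13 in bone marrow, against 1.02% ± 1.05 in spleen of LSK recipients (SD, n = 4). In mixed mice mCHERRY_2_Barcode_88201, which had no such p, held 10.4% ± 3.24 in bone marrow, against 4.71% ± 3.51 in spleen (SD, n = 3). Its organs were nearly equal in mouse 22, at 7.20% and 7.28%, and the unpaired spleen of mouse 24 held 11.7%. In GMP recipients this clone held 10.4% ± 3.28 in bone marrow, against 4.30% ± 2.65 in spleen (SD, n = 4), higher in the bone marrow of 4 of 4 mice. Without mouse 22 the interaction called 1 of 42 GMP clones, mCHERRY_2_Barcode_205681, with a log2 value of 5.80 (limma adjusted p = 0.0255). With all mice the value of this clone was 2.66 (limma adjusted p = 0.674). In mouse 22 it was lower in bone marrow, at 0.654% of GMP reads, than in spleen, at 11.8%, while it was higher in the bone marrow of mice 21 and 23.

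The mixed Ptprca recipients were scaled in a separate table, and their values are given beside these without a test. The LSK share was lower in the bone marrow of 2 of 3 NSG mice and of 4 of 4 Ptprca mice. In Ptprca mice it averaged 36.3% ± 3.01 in bone marrow, against 44.1% ± 5.13 in spleen (SD, n = 4 each). Effective clones in NSG mice averaged 12.7 ± 0.96 in bone marrow, against 9.81 ± 3.29 in spleen (SD, n = 3 each), higher in the bone marrow of 3 of 3 mice. In Ptprca mice they averaged 20.0 ± 2.99 in bone marrow, against 12.3 ± 0.90 in spleen (SD, n = 4 each), higher in the bone marrow of 4 of 4 mice. By origin, the log2 difference in Ptprca mice was 1.22 ± 0.36 for effective LSK clones and 0.43 ± 0.19 for effective GMP clones (SD, n = 4 each, 4 of 4 mice higher in bone marrow for each). In NSG mice it was 0.21 ± 0.46 for LSK clones (2 of 3 mice higher in bone marrow) and 0.67 ± 0.43 for GMP clones (3 of 3 mice; SD, n = 3 each). Without mouse 23 these were -0.039 and 0.42. The unpaired NSG spleen of mouse 24 held 7.27 effective GMP clones, above all 3 NSG bone marrow values. Detected clones in Ptprca mice numbered 142.5 ± 8.35 in bone marrow, against 79.8 ± 2.22 in spleen (SD, n = 4 each, 4 of 4 mice higher in bone marrow), while those of NSG mice were higher in the bone marrow of 2 of 3 mice.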

How the data were processed

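Barcodes were read from genomic DNA per the labels, although their extraction protocol describes a droplet preparation. Bowtie 1.2.2 and R 3.6 are named in the submitters' processing notes; settings are not given in the sources used here. Per the file names, the authors filtered barcodes, collapsed PCR duplicates and deposited values as CPM; it is not said whether duplicates were added or averaged. All values were whole multiples of 1 step per sample (100% within 0.01 read), taken as 1 read.

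CPM were rescaled to the reads of each origin. The 13 summary measures were tested with exact two-sided sign-flip or permutation tests and adjusted by Benjamini-Hochberg. Clones that averaged at least 100 CPM were fitted with limma 3.58.1 (R 4.3.3, trend, mouse as block) on log2 of CPM plus 10, called at an adjusted p under 0.05, with edgeR 4.0.16 as an alternative. The mouse paired the samples because the labels give both tissues 1 mouse number; the check of that pairing stands in the results. Named clones were the 10 largest of each origin, called clones, up to 3 per direction and origin restricted to 1 organ and up to 3 found in 1 mouse; fitted differences are given for clones with a mean of 5% or more, a limit set after values were seen. Members and lists were chosen with earlier results of these data known. The mice are separate animals given cells of 1 pool, so p-values measure the spread between recipients of that pool. Alternatives were other pseudocounts (1 and 100 CPM), minima (10 and 1000 CPM, or none), scalings, indices and top lists (5 and 20), no trend, no block and each mouse left out; crossing mice 21 and 22 and equal depth were added after seeing the data. Limits of 0 use 3 reads, and they and the 95% intervals cover counting error only. The tests were checked on simulated data, the exact tests with more mice than here and the power of limma only at low noise. These checks say nothing of the power in these data.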

Additional observations from a re-analysis of the deposited data

Results flagged for a closer look

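Barcodes with a BFP name, which no sample label mentions and no comparison above uses, were above their level in the mixed pool in 5 of the 6 samples. They summed to 78.3 CPM in the bone marrow and 170.3 CPM in the spleen of mouse 21, to 26.1 CPM in the bone marrow of mouse 22, and to 26.8 CPM in the bone marrow and 32.0 CPM in the spleen of mouse 23. The spleen of mouse 22 held 7.36 CPM, and the pool 15.3 CPM. The largest single BFP barcode reached 36.0 CPM, in the spleen of mouse 21.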

How the results depend on the processing

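The 13 summary measures, 3 counts of called clones and 9 fitted clone differences were recomputed under 280 alternatives, of which 265 kept direction and side of the threshold. In no summary measure did the exact test pass 0.05, which neither 3 paired mice nor 3 against 4 mice allow, so kept sides say nothing of stability. Dropping the pairing (no replicate block) left every mean difference unchanged by construction and changed no call; p was then 0.7 for the LSK share of -0.37 log2 odds, and 0.1, the smallest that 3 against 3 samples allow, for effective clones (0.43), effective GMP clones (0.67) and the top 10 share (-6.23 points), and limma called 0 of 70 clones. Crossing mice 21 and 22, an alternative chosen after seeing the data, also called 0 (lowest adjusted p 0.474).

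Detected clones changed direction from 0.024 to -0.20 at 10 CPM, -0.73 with no minimum and -0.69 at the lowest depth; detected GMP clones from 0.24 to -0.24 at 10 CPM and -0.76 with no minimum; detected LSK clones from -0.12 to 0.027 at 1000 CPM. With each mouse left out in turn, ranges were -0.93 to -0.045 for the LSK share, 0.16 to 0.61 for effective clones, -0.039 to 0.41 for LSK and 0.42 to 0.82 for GMP effective clones, -0.070 to 0.13 for detected clones, -0.11 to 0.34 and 0.35 to 0.75 for the effective LSK and GMP clones set against single-origin mice, and 0 to 1 called clone for the organ comparison and for the GMP interaction, the 1 in each being without mouse 22. Among clones, with a mouse left out, GFP_Barcode_29850 ranged from -0.58 (without mouse 21) to 0.69, mCHERRY_2_Barcode_205681 from -0.31 (without mouse 21) to 5.24 and mCHERRY_2_Barcode_1204592 from -0.029 (without mouse 23) to 0.45, the last also turning to -0.72 in edgeR with TMM; the cause was not tested. Leaving out a mouse leaves 2 pairs. At the depths of the 6 samples 0 reads of a clone allow up to 3.85e-05% to 5.23e-05% of LSK plus GMP reads.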

Other observations

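The spleen of mouse 24, which has no bone marrow sample here, held 55.0% LSK reads, with 12.8 effective clones over both origins, 5.85 among LSK clones and 7.27 among GMP clones. Its leading LSK clones were GFP_Barcode_7785 at 32.1%, GFP_Barcode_1859 at 28.9%, GFP_Barcode_29850 at 19.9% and GFP_Barcode_100907 at 7.01% of LSK reads. Its leading GMP clones were mCHERRY_2_Barcode_626161 at 27.3%, mCHERRY_2_Barcode_283858 at 27.0%, mCHERRY_2_Barcode_4128 at 14.7% and mCHERRY_2_Barcode_88201 at 11.7% of GMP reads. GFP_Barcode_94426, which reached 6.80% in the bone marrow of mouse 23, against 0.0665% in its spleen, held 3.15% in this spleen.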
